A study of Mus musculus with 24 samples.

Results

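At day 7 of adipogenic differentiation, 3 libraries of cells labelled Cre + NFIA Δpro#3 were compared with 3 libraries labelled Cre, gene by gene, in poly(A) RNA-seq of cultured mouse stromal-vascular cells. Genes entered the comparison when their expression value was at least 1 FPKM (fragments per kilobase of transcript, scaled to the mapped reads of the library) in at least 3 of these 6 libraries, which kept 11802 of the 24825 genes listed. The other 13023 genes were not tested, and 7275 of them were at 0 in all 6 libraries. Of the genes tested, 69 had no Cre + NFIA Δpro#3 library at 1 FPKM and entered through Cre alone. Another 51 had no Cre library at 1 FPKM and entered through Cre + NFIA Δpro#3 alone. For both sets the filter itself fixes the direction of the difference. The whole series holds 24 libraries in 8 groups of 3, where cells labelled Cre + NFIA Δpro#3, Cre + NFIA, Cre or ctrl were each taken at day 0 and at day 7.

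All cells came from the stromal-vascular fraction of inguinal white fat of Nfia flox/flox mice and were immortalised with SV40 large T antigen. The ctrl cells carried an empty retrovirus and the other groups a retrovirus for Cre recombinase. The Cre + NFIA cells also received a second retrovirus for 3xFLAG-tagged full-length NFIA. The Cre + NFIA Δpro#3 cells, called the mutant below, received instead a 3xFLAG-tagged NFIA that lacks a proline-rich segment of its C-terminal region. Both transgenes were driven by the retrovirus and not by the Nfia promoter, and the sources used here do not state how many mice the cells came from or whether a line was 1 clone. The study's methods do not state whether the Cre cells received an empty second retrovirus. An effect of a second infection could therefore not be told apart from that of the transgene in this comparison. From confluence (day 0), all groups were held for 48 hours in isobutylmethylxanthine, indomethacin, dexamethasone, insulin, triiodothyronine (T3) and rosiglitazone, and then in insulin, T3 and rosiglitazone. Rosiglitazone is an agonist of PPARγ, so the day 7 cells of every group had been exposed to it throughout.

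NFIA belongs to the nuclear factor I family, whose members bind DNA as dimers through an N-terminal domain and contact the transcription machinery through a C-terminal region rich in proline. In fat cells, NFIA is known to bind enhancers together with PPARγ, the nuclear receptor that drives adipogenesis. Adipogenesis turns a fibroblast-like precursor into a cell that takes up, stores and releases fat. The comparison asks what NFIA without this segment does to that programme when it is put into cells that have lost their own NFIA.

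The libraries of the 6 samples held 9152991 to 12686651 reads assigned to genes, and a gene at 3 reads in such a library is at the floor of what can be told from 0. The Nfia gene itself did not fall in the libraries labelled Cre, where it stood at 10.1 ± 0.588 FPKM (SD, n = 3, as throughout) against 9.55 ± 0.355 in ctrl. Its value is summed over a gene model of 9643 bases, so it does not check the deleted part. In the mutant libraries it read 111, 99.5 and 94.98 FPKM, beside 97.1, 88.98 and 83.9 FPKM in Cre + NFIA, and these values add reads of the transgene to those of the cell's own gene. Fat cell markers (Adipoq, Fabp4, Plin1, Lpl, Cidec and Pparg) summed to 4277 to 9186 FPKM in Cre and to 814 to 2066 FPKM in the mutant, against 21300 to 24713 FPKM in ctrl. Markers of stromal fibroblasts (Col1a1, Col1a2, Pdgfra, Pdgfrb, Dpt and Thy1) summed to 1487 to 1785 FPKM in Cre and to 1592 to 1901 FPKM in the mutant, ranges that overlapped. Most of this sum is Col1a1 and Col1a2. Dpt fell, by 0.52 on the log2 scale, and the other 5 had log2 changes above 0 and did not pass the test. In such bulk samples, fewer fat cells and less fat cell RNA per cell cannot be told apart. The sum of 5 endothelial markers was 2.65 to 2.78 FPKM in Cre and 4.47 to 5.03 in the mutant, where Kdr rose, Tek (1.88 and 1.22 FPKM) fell by an unstable call (defined below, adjusted p up to 0.1001) and Pecam1, Cdh5 and Emcn were at or near 0 in both. The sum of 6 leukocyte markers was 6.33 to 7.999 FPKM in Cre and 9.78 to 10.5 in the mutant, where Lyz2, a lysozyme, rose (1.099 and 2.85 FPKM) and Ptprc, Adgre1 and Cd3e were at 0 in every library but 1, in which Ptprc was at 0.0151 FPKM. The other 2 markers, Cd68 and Csf1r, had log2 changes above 0 and did not pass the test. The part of endothelial cells and leukocytes in the results was not tested. No mesothelial, epithelial, pericyte or Schwann cell marker reached a mean of 1 FPKM in either group.

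The difference at day 7 was nearly one-sided when large changes are counted. By limma on log2(FPKM + 1), fitted over the 12 day 7 libraries and adjusted over all genes tested, 76 genes were at least 3-fold lower in the mutant than in Cre (0.644% of genes tested) and 4 were at least 3-fold higher (0.0339%), at an adjusted p under 0.05. Without the fold threshold, 1214 genes fell (10.3%) and 975 rose (8.26%), so that smaller changes were spread over both directions. Counts of gene lists below are to be read beside these shares. The median log2 fold change over all genes tested was 0.02. Groups of 3 that did not overlap were found for 1822 genes with the mutant lower (15.4%) and for 2128 with the mutant higher (18.0%), and all 76 of the 3-fold lower genes were among the former. Of the 80 genes past 3-fold, 6 are under 200 bases long, where few reads carry the value. The 4 higher genes, named after their values were seen, were Nfia itself, Mmp3 and the short miRNA genes Mir697 and Mir6960.

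The number of 3-fold genes rested on which libraries were included. Among the 76 lower genes, the median was 2.78, 5.96 and 6.08 FPKM in mutant replicates 1, 2 and 3, and 21.1, 28.8 and 13.5 FPKM in Cre replicates 1, 2 and 3. Mutant replicate 1 was the lowest mutant library for 72 of these genes, and Cre replicate 3 was the lowest Cre library for 74. Leaving out mutant replicate 1 reduced the count from 80 to 42, and leaving out Cre replicate 2 reduced it to 50. Leaving out Cre replicate 3 raised it to 129, and leaving out mutant replicate 1 together with Cre replicate 3 gave 90. Counts of the main fat cell lists moved little: without both of these libraries, 6 of 8 lipid droplet genes, 10 of 11 lipolysis genes and 13 of 14 triglyceride synthesis genes fell, as with all libraries. Most named genes were followed over the fits that left out a library, and 146 of those followed passed the test. Of these, 27 lost the call without at least 1 of the 6 libraries. The loss was most often without Cre replicate 2 (24 genes), mutant replicate 1 (22) or Cre replicate 1 (18). Apart from Mir6960 (unstable, adjusted p up to 0.091), these had log2 changes of at most 0.54, and they are called unstable where they appear, with the largest adjusted p over the 6 fits that left out a library. Some list members named below, such as Mmp9, Pck1, Pnpla3, Nrg4, Col3a1 and Col8a1, were not followed gene by gene and carry no such label. The samples carry replicate numbers, but nothing in the labels says that they were separate cultures, so the p-values measure the spread between these libraries, which may be technical.

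**Figure D1:**
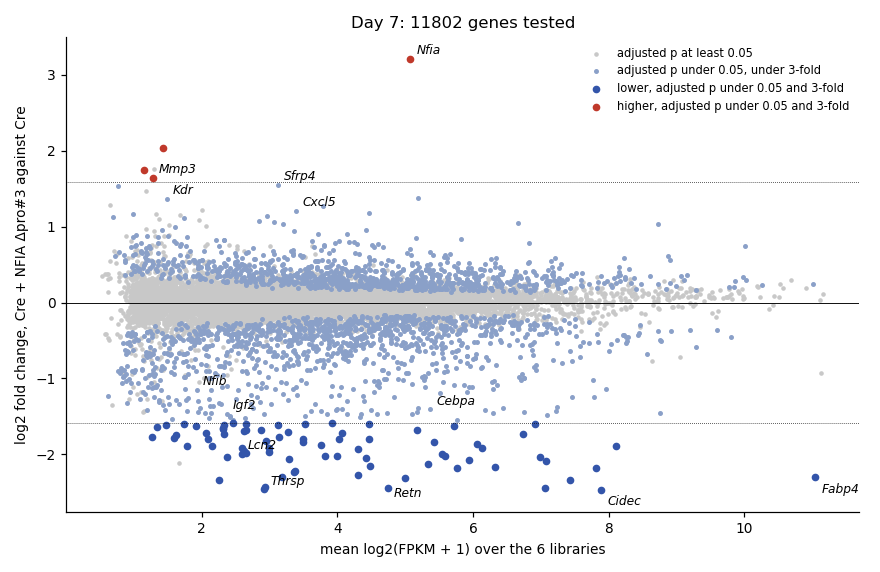
Each of the 11802 genes tested is a point, with its mean log2(FPKM + 1) over the 6 day 7 libraries on the x axis and the log2 fold change of Cre + NFIA Δpro#3 against Cre on the y axis. Dotted lines mark 3-fold. The 76 genes past 3-fold below 0 span low to very high levels, with Fabp4 at the right end, while Nfia at 3.21 stands alone at the top.

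The 12 genes with the largest falls are described first. Cidec, a protein that fuses lipid droplets into large ones (chromosome 6, 113374628 to 113385754, GENCODE on NCBIM37, the mm9 build), read 604, 784 and 365 FPKM in the 3 Cre libraries and 52.5, 128 and 146 FPKM in the 3 mutant libraries. Gpd1, which makes the glycerol phosphate backbone of triglycerides (chromosome 15, 99547946 to 99555436), read 333, 453 and 196 FPKM in Cre and 28.1, 73.1 and 85.1 FPKM in the mutant. For both genes every mutant library was below every Cre library, and replicate 1 was the lowest of the mutant libraries. Fabp4, the fatty acid carrier of fat cells and the most abundant of these RNAs (chromosome 3, 10204347 to 10208576), read 5365, 6611 and 2914 FPKM in Cre and 494, 1271 and 1362 FPKM in the mutant. The Fabp4 level was thus 4.76-fold lower in the mutant, yet still above the 26.3 FPKM of mutant cells at day 0.

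Regulators of fat synthesis were in the same group. Mlxipl, which encodes the glucose-sensing factor ChREBP (chromosome 5, 135582761 to 135614254), read 19.8, 25.6 and 9.14 FPKM in Cre and 1.11, 2.98 and 3.18 FPKM in the mutant. Thrsp, a nuclear protein linked to lipogenesis (chromosome 7, 104561448 to 104566240), read 21.3, 28.7 and 7.48 FPKM in Cre and 0.855, 3.08 and 3.43 FPKM in the mutant. Cre replicate 3 stood well below the other Cre libraries for both, and the mutant libraries were lower still. G0s2, an inhibitor of the lipase ATGL (chromosome 1, 195098355 to 195099382), read 433, 544 and 247 FPKM in Cre and 41.8, 106 and 99.02 FPKM in the mutant. Mrap, which carries the melanocortin 2 receptor to the cell surface (chromosome 16, 90738569 to 90750030), read 73.8, 102 and 45.1 FPKM in Cre and 8.64, 16 and 16.7 FPKM in the mutant.

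Secreted proteins and carbonic anhydrases made up the rest of the 12 genes with the largest falls. Retn, which encodes the hormone resistin (chromosome 8, 3655770 to 3660110), read 71.3, 94.9 and 34.4 FPKM in Cre and 5.598, 14.1 and 14.2 FPKM in the mutant. Cfd, or adipsin, a protease of the alternative complement pathway (chromosome 10, 79353598 to 79355401), read 41.2, 67.1 and 27.7 FPKM in Cre and 3.81, 11.1 and 11.4 FPKM in the mutant. The acute-phase protein gene Orm1 (chromosome 4, 63005594 to 63009197) read 22.2, 37.3 and 11.9 FPKM in Cre and 1.87, 5.73 and 4.76 FPKM in the mutant. As in all 12 genes, the highest mutant library was below the lowest Cre library, a separation that was part of the rule that chose them. Car3 (chromosome 3, 14863538 to 14872351), a carbonic anhydrase abundant in fat and muscle, read 20.9, 28.9 and 11.4 FPKM in Cre and 1.96, 2.595 and 5.36 FPKM in the mutant. Car2 (chromosome 3, 14886426 to 14900769), a carbonic anhydrase of many tissues, read 22.3, 30.4 and 14.4 FPKM in Cre and 2.597, 4.25 and 4.66 FPKM in the mutant. Car2 differed from the other 11 in that its Cre mean of 22.3 FPKM was near the ctrl mean of 24.7 FPKM. Log2 fold changes of the 12 ran from -2.47 (SE 0.33, Cidec) to -2.23 (SE 0.35, Orm1), and their adjusted p-values from 0.000174 (Car2) to 0.00135 (Thrsp).

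**Figure D2:**
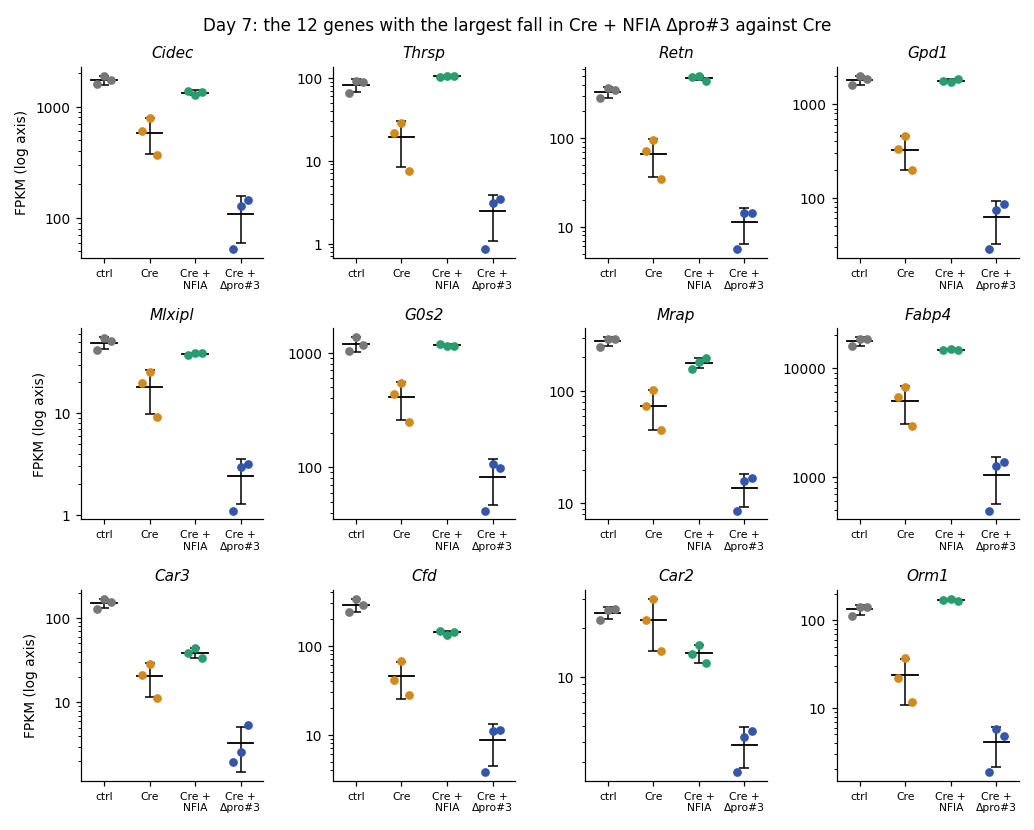
FPKM on a log axis for the 12 genes with the largest falls, in the day 7 libraries of the 4 groups (Cre + NFIA Δpro#3 is written Cre + Δpro#3). Points are libraries, bars are means and whiskers are SD (n = 3). In each panel the mutant libraries lie lowest, for Fabp4 at 494 to 1362 against 2914 to 6611 FPKM in Cre.

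Among all 76 genes, the Cre mean was between 3.05 and 8.05 times the mutant mean for those of at least 200 bases, with a median of 4.34. The Cre mean was at least 100 FPKM for 16 of them and under 10 FPKM for 17. The mutant mean was below the ctrl mean for 75, and the Cre mean was below the ctrl mean for 73. The mutant mean at day 7 was above the mutant mean at day 0 for 70, so most of these genes were still higher in the mutant than before differentiation. The 6 exceptions were Orm1, Hp, Lcn2 and 3 genes under 200 bases. Hp, which encodes the haemoglobin-binding protein haptoglobin, stood at 24.7 FPKM at day 7 and at 40.7 FPKM at day 0 in the mutant. Only 3 of the 76 had no mutant library at 1 FPKM and entered the test through Cre alone.

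Promoter sequence was examined for the 3-fold lower genes because nuclear factor I proteins bind the palindrome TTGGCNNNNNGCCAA and, less tightly, its half-site TTGGC. The 250 bases before each listed start were taken from RefSeq (GRCm38.p6), whose table held 55 starts of 45 of the 76 genes. The half-site, searched on both strands, lay in 28 of these 55 windows (50.9%) and in 13637 of all 32851 windows (41.5%). Windows are counted per start, so a gene with several starts counts more than once. All windows include those of genes not tested here, and the difference in shares was not tested. No full palindrome was found in the 55 windows, and 12 of the 32851 held one. The direct repeat AGGTCANAGGTCA, bound by PPARγ with its partner RXR, was also absent from the 55 windows and present in 11 of all windows. The C/EBP-type motif TTGCNNAA lay in 5 of the 55 (9.09%) and in 9.56% of all windows. A match to these letters does not say whether a factor was bound. The windows of Adipoq (adiponectin) and Thrsp are printed, as 2 lower genes whose windows hold several half-sites, with that of Mmp3, which went past 3-fold in the other direction. Capitals mark TTGGC or its reverse complement GCCAA, which can overlap, and the last base lies just before the listed start.
Adipoq (chr16:23146286-23146535, plus strand): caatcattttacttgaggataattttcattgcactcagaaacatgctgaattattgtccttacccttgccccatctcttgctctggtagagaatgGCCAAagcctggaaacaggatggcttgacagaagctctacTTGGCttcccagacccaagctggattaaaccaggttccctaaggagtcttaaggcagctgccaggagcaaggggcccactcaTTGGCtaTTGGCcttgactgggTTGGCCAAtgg
Thrsp (chr7:97417551-97417800, minus strand): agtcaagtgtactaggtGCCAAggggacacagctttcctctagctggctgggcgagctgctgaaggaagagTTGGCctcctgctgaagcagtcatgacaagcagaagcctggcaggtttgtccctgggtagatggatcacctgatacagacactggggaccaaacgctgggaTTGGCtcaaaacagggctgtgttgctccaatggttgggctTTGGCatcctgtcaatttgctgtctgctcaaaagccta
Mmp3 (chr9:7445572-7445821, plus strand): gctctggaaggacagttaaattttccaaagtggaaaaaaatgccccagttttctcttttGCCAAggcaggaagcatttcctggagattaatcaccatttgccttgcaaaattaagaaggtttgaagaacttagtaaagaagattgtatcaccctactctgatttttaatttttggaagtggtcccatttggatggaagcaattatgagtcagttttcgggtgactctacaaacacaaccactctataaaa

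The central regulators of adipogenesis, PPARγ and C/EBPα, fell by less than the 12 genes above. Pparg (chromosome 6, 115311239 to 115440419) read 24.05, 26.996 and 16.3 FPKM in Cre and 6.38, 9.29 and 11.4 FPKM in the mutant, a log2 fold change of -1.23 (SE 0.18, adjusted p = 0.000867). Cebpa, which encodes C/EBPα and sustains Pparg expression (chromosome 7, 35904312 to 35906945), read 69.3, 85.7 and 49.01 FPKM in Cre and 16.8, 29.1 and 29.5 FPKM in the mutant (-1.41, SE 0.21, adjusted p = 0.00088). Groups of 3 did not overlap for either gene, and both were below their ctrl means of 52.03 and 154 FPKM in Cre and in the mutant alike. Of 17 adipogenic transcription factors tested, 9 fell, 1 rose and 7 did not pass the test, with a median log2 fold change of -0.27. The share that fell was 52.9%, beside 10.3% of all genes tested. Those that fell included Nr1h3, the liver X receptor α, at -1.59, and Srebf1, the driver of lipogenic genes, at -1.05. Zfp423, which commits precursors to the fat lineage, stood at 5.996 ± 0.695 FPKM in Cre and 3.71 ± 0.452 FPKM in the mutant, a fall of a smaller size (-0.57, SE 0.09, adjusted p = 0.00114). Klf9 was the factor that rose, at 0.24 (unstable, adjusted p up to 0.156). Cebpb and Cebpd, the early factors of the cascade, had log2 fold changes of -0.08 (SE 0.18) and 0.33 (SE 0.13) and did not pass the test. The count of factors that fell was 7 to 9 when single libraries were left out.

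Within the nuclear factor I family, Nfib fell besides the rise of Nfia. Nfib read 4.67, 5.85 and 3.73 FPKM in Cre and 0.946, 1.58 and 2.32 FPKM in the mutant, against a ctrl mean of 15.2 and a Cre + NFIA mean of 12.7 FPKM. The difference was -1.15 on the log2 scale (SE 0.17, adjusted p = 0.000793), and the groups did not overlap. Nfic stood at 68.4 ± 2.63 and 66.1 ± 3.43 FPKM in Cre and the mutant and Nfix at 63.7 ± 3.51 and 64.3 ± 1.69 FPKM, and neither passed the test.

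Most genes that build, fill and empty the lipid droplet fell. Of 8 lipid droplet proteins tested, 6 fell and 2 did not pass the test (median log2 fold change -1.33, beside 10.3% of all genes tested that fell). Plin1, the coat protein that gates lipolysis, read 176, 233 and 116 FPKM in Cre and 16.8, 51.6 and 56.5 FPKM in the mutant. Plin4, Plin2 and Fitm2, a protein of droplet budding, fell by 1.41, 1.25 and 1.44 on the log2 scale. Plin3, a coat protein found in most cells, was at 40.4 and 43.9 FPKM and did not pass the test. Among 11 lipolysis genes, 10 fell and 1 rose, with a median of -1.62. Lipe, the hormone-sensitive lipase, stood at 95.5 ± 31.3 FPKM in Cre and 23.6 ± 9.11 in the mutant, Pnpla2, the first lipase of the cascade, at 142 ± 49.9 and 37.8 ± 15.7, and Mgll, the monoglyceride lipase, at 41.8 ± 13.4 and 11.5 ± 4.4995. Hcar1, the lactate receptor that restrains lipolysis, fell by 1.11 and had no mutant library at 1 FPKM, so it entered the test through Cre alone. Adrb3, the adrenergic receptor of fat cells that switches lipolysis on, read 9.04, 11.1 and 4.697 FPKM in Cre and 1.04, 2.43 and 2.397 FPKM in the mutant (-1.62).

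Fatty acid uptake and synthesis followed the same direction. Of 10 genes of uptake and binding, 8 fell, with a median of -1.46. Lpl, the lipase that frees fatty acids from lipoproteins, stood at 727 ± 167 FPKM in Cre and 267 ± 69.6 in the mutant, a fall of 2.73-fold. Cd36, a fatty acid transporter, was 4.01-fold lower, Fabp5 was 3.81-fold lower and Acsl1, which activates fatty acids, 4.11-fold lower, while Angptl4, an inhibitor of Lpl, was 2.81-fold lower. Of 14 genes of fatty acid synthesis, 10 fell and 4 did not pass, with a median of -1.05. Fasn, the synthase, stood at 236 ± 77.8 FPKM in Cre and 81.4 ± 12.1 in the mutant. Acaca, which makes malonyl-CoA, fell by 1.09, Acss2, which makes acetyl-CoA from acetate, by 1.25 and the citrate carrier Slc25a1 by 1.02. Of 14 genes of triglyceride synthesis and glyceroneogenesis, 13 fell (median -1.09), among them the acyltransferases Gpat3 (-2.05) and Agpat2 (-2.04), the glycerol kinase gene Gk (-0.87) and the pyruvate dehydrogenase kinase Pdk4 (-0.75). The 13 include Pck1 and Pnpla3, with means of 2.44 and 2.5 FPKM in Cre. Their mutant means, 0.691 and 0.579 FPKM, were below the filter level.

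Of 8 adipokines tested, 7 fell, with a median of -1.38. The 7 include Nrg4, at 1.72 FPKM in Cre and at 0.364 FPKM, below the filter level, in the mutant. Adipoq, whose promoter is printed above, read 522, 655 and 319.9 FPKM in Cre and 51.1, 141 and 158 FPKM in the mutant (-2.18, SE 0.35, adjusted p = 0.00121). Rbp4, the retinol carrier, stood at 10.3 ± 3.19 and 2.49 ± 0.877 FPKM, far below the 322 ± 21.1 FPKM of Cre + NFIA. Of 13 genes of insulin signalling and glucose transport, 9 fell and 4 did not pass (median -0.46). Slc2a4, the insulin-responsive glucose transporter GLUT4, read 11.4, 17.3 and 7.67 FPKM in Cre and 0.998, 2.77 and 3.23 FPKM in the mutant, a log2 fold change of -1.98. Irs1 and Pik3r1, which relay the insulin signal, each fell by 0.46 on the log2 scale. Slc2a1, the basal glucose transporter, was at 38.6 and 45.99 FPKM, higher in each mutant library than in each Cre library but not past the test (adjusted p = 0.0757).

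Genes of heat production were mostly too low to compare. Of 24 thermogenic genes listed, 11 passed the filter, and Ucp1, the uncoupling protein of brown fat, was not among them. Ucp1 read 0.254, 0.133 and 0 FPKM in Cre and 0.0521, 0 and 0 FPKM in the mutant, and Cidea and Dio2 were at 0 in all 6 libraries. Cox8b stood at 0.1597 FPKM in Cre and 0.303 in the mutant, where Cre + NFIA had 111 FPKM, and Ppargc1a at 0.343 and 0.157 against 5.86 FPKM. At these levels a difference between Cre and the mutant was not detectable at this depth. Of the 11 tested, 3 fell (27.3%), 2 rose (18.2%) and 6 did not pass, beside 10.3% and 8.26% of all genes tested. Kcnk3, a potassium channel of thermogenic fat cells, read 10.7, 14.8 and 7.68 FPKM in Cre and 0.922, 2.45 and 3.46 in the mutant, and Elovl3, which elongates very long chain fatty acids, 8.697, 10.0 and 3.81 and 0.821, 1.36 and 1.804 FPKM. Ppargc1b, a coactivator of mitochondrial genes, fell by 1.34. P2rx5, used as a brown fat surface marker, and Zic1, a marker of classical brown precursors, rose by 0.54 and 0.31 on the log2 scale, with adjusted p = 0.0212 (unstable, adjusted p up to 0.0882) and 0.0497 (unstable, adjusted p up to 0.154). Prdm16, a determinant of the brown fate, was at 1.61 and 1.499 FPKM and did not pass the test.

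Of 22 genes of fatty acid oxidation, 21 fell, with a median of -0.72, including the trifunctional protein subunit Hadhb (-1.11), the dehydrogenases Acadl (-1.09) and Hadh (-1.04) and the carnitine transferase Cpt2 (-0.69). Of 16 genes of branched-chain amino acid breakdown, 13 fell (median -0.56). Bcat2, its first enzyme, stood at 37.03 ± 8.696 FPKM in Cre and 17.7 ± 2.46 in the mutant, while Hibch, Pcca and Mccc2 of later steps fell by 0.91, 0.70 and 0.58. Of 18 genes of the citric acid cycle, 16 fell (median -0.36), with Idh3a at -0.91, the citrate synthase Cs at -0.72, Suclg1 at -0.49 and Dld at -0.38. The citric acid cycle count was 8 without mutant replicate 1, without Cre replicate 1 or without Cre replicate 2, and 15 without both mutant replicate 1 and Cre replicate 3. Of 79 subunits of the respiratory chain and ATP synthase, 49 fell and 30 did not pass, with a median of -0.33. The complex I subunit Ndufb5 stood at 61.7 ± 2.75 and 45.9 ± 3.002 FPKM and the complex III subunit Uqcrc2 at 53.3 ± 4.795 and 38.6 ± 1.22. The respiratory chain count was 22 without Cre replicate 2, 24 without mutant replicate 1, 26 without Cre replicate 1, 30 without mutant replicate 3 and 60 without Cre replicate 3. Of 75 mitochondrial ribosomal proteins, 12 fell, a share of 16% beside 10.3% of all genes, led by Mrps6 (-0.55) and Mrpl49 (-0.33), and that count was 24 without Cre replicate 3 and 8 without Cre replicate 1 or 2.

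Of 22 genes of cholesterol synthesis and uptake, 15 fell and 7 did not pass (median -0.30). Insig1, the sensor that holds SREBP in the endoplasmic reticulum and is also a PPARγ target, stood at 200 ± 62.4 FPKM in Cre and 59.4 ± 18.8 in the mutant. The synthesis enzymes Dhcr7 and Lss fell by 1.29 and 1.11 on the log2 scale. The cholesterol count was 10 without Cre replicate 1. Of 15 glycolysis genes, 4 fell (26.7%), 4 rose (26.7%) and 7 did not pass, beside 10.3% of all genes tested that fell and 8.26% that rose. Pfkfb3, which sets the level of the activator fructose 2,6-bisphosphate, fell by 1.03 and Ldhb by 0.90, while the hexokinase Hk1 and the phosphofructokinase Pfkp rose by 0.32 and 0.31 (Pfkp unstable, adjusted p up to 0.0644). Without mutant replicate 1, Cre replicate 1 or Cre replicate 2, 2 glycolysis genes fell and 1 rose.

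**Figure D3:**
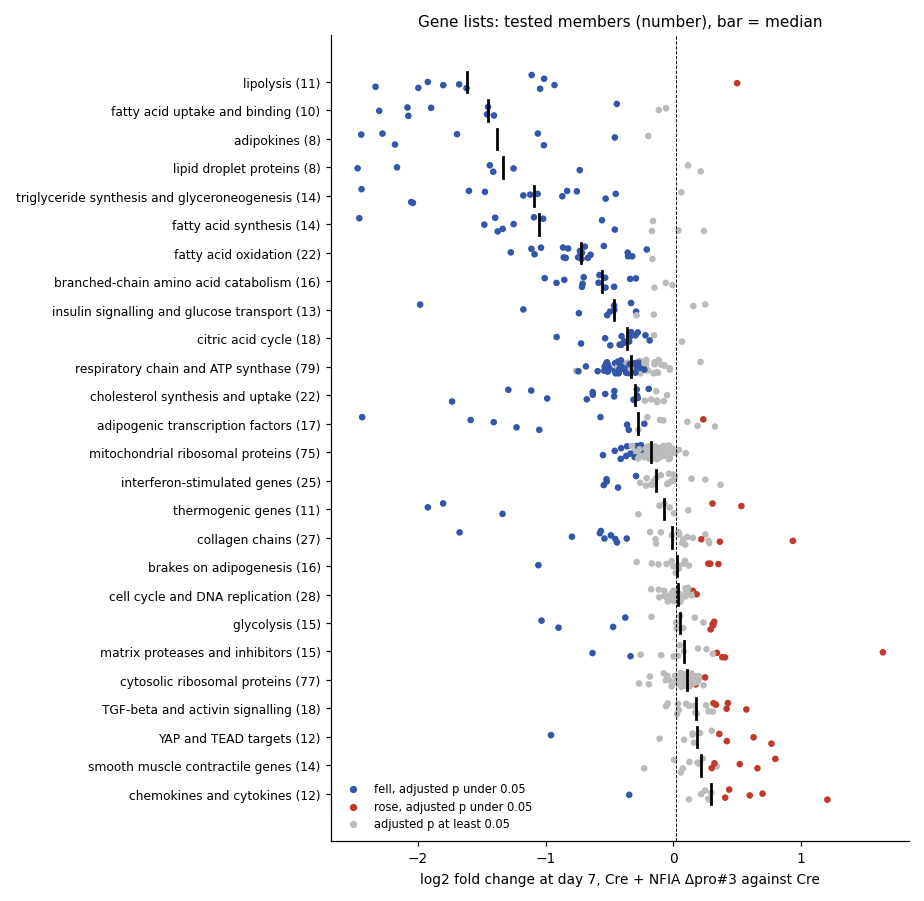
Each row is a gene list, with the number of members tested in parentheses, and each point is the log2 fold change at day 7 of a tested member in Cre + NFIA Δpro#3 against Cre. Black bars are medians and the dashed line is the median of all genes tested, 0.02. Lipolysis has the lowest median at -1.62, and the chemokines and cytokines have the highest at 0.29.

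The genes that rose most in the mutant encode a matrix protease, secreted signals and membrane proteins. Mmp3, a metalloprotease that degrades matrix (chromosome 9, 7445822 to 7455972), read 0.324, 0.303 and 0.503 FPKM in Cre and 3.09, 2.89 and 3.98 FPKM in the mutant (1.65, SE 0.16, adjusted p = 0.000121). Its ctrl and Cre + NFIA means were 0.617 and 0.391 FPKM, and no other day 7 library reached 1 FPKM, so that Mmp3 entered the test through the mutant alone. Sfrp4, a secreted Wnt antagonist (chromosome 13, 19714973 to 19724863), read 4.03, 3.23 and 5.202 FPKM in Cre and 14.3, 13.03 and 14.5 FPKM in the mutant. Grem1, a secreted antagonist of BMP (chromosome 2, 113586321 to 113598803), read 10.6, 12.3 and 19.4 FPKM in Cre and 34.2, 29.7 and 32.7 FPKM in the mutant, where ctrl had 2.12 FPKM. For Grem1 the levels ordered ctrl, Cre and mutant, with no overlap between neighbours. Cxcl5, a neutrophil chemokine (chromosome 5, 91188325 to 91190651), read 5.74, 7.39 and 4.81 FPKM in Cre and 16.3, 12.4 and 16.5 FPKM in the mutant. Emp2, a tetraspan membrane protein (chromosome 16, 10281842 to 10314061), read 3.47, 4.45 and 4.896 FPKM in Cre and 11.4, 10.1 and 10.2 FPKM in the mutant. Cre and ctrl means of these last were alike, at 5.98 and 5.76 FPKM for Cxcl5 and at 4.27 and 3.88 FPKM for Emp2. Kdr, a receptor for VEGF (chromosome 5, 76328852 to 76374483), read 0.827, 0.682 and 0.715 FPKM in Cre and 3.26, 3.69 and 3.55 FPKM in the mutant, so it also entered the test through the mutant alone, and Pecam1, Cdh5 and Emcn were at or near 0 as given above. Bglap2 and Bglap, neighbouring osteocalcin genes (chromosome 3, 88181658 to 88182621 and chromosome 3, 88187423 to 88188386), rose by 1.38 and 1.27, and since these copies are nearly identical the split of reads between them is uncertain. All 8 had groups of 3 that did not overlap, with limma adjusted p-values from 1.62e-05 (Bglap2) to 0.00248 (Grem1). For Mmp3 and Kdr the filter fixed this separation in advance, and for Mmp3 it was also part of the rule that chose it.

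**Figure D4:**
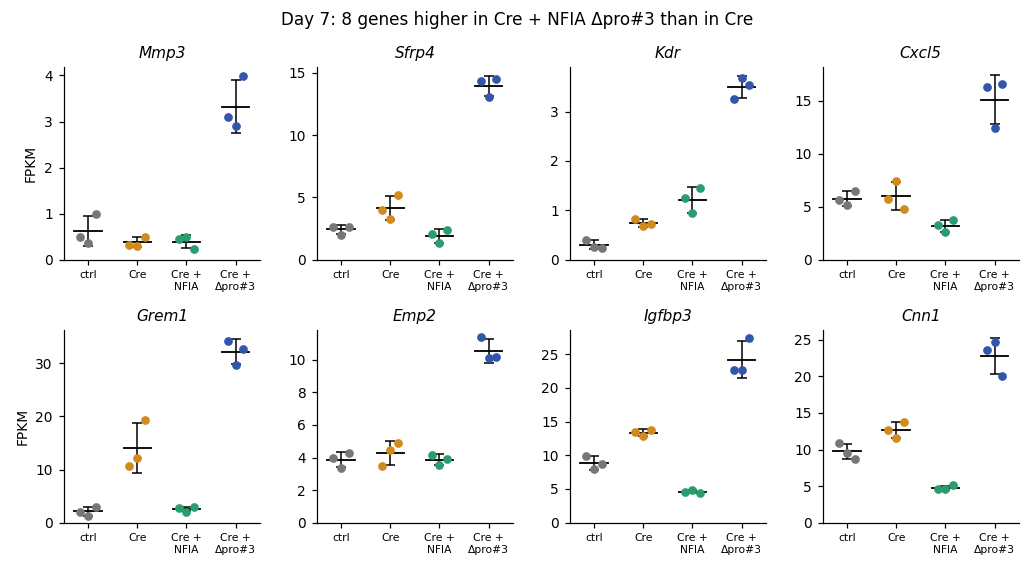
FPKM on a linear axis for 8 genes higher in Cre + NFIA Δpro#3 (written Cre + Δpro#3) than in Cre, in the day 7 libraries of the 4 groups. Points are libraries, bars are means and whiskers are SD (n = 3). In each panel the 3 mutant libraries lie above all other libraries, for Mmp3 at 2.89 to 3.98 FPKM.

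Some contractile genes of smooth muscle type rose. Of 14 tested, 5 rose and 9 did not pass the limma test, with a median of 0.22 beside 8.26% of all genes that rose. Cnn1, or calponin, read 12.6, 11.5 and 13.7 FPKM in Cre and 23.6, 24.8 and 20.1 FPKM in the mutant. Actg2, a smooth muscle actin, read 32.97, 25.9 and 37.04 FPKM in Cre and 55.6, 51.3 and 45.6 FPKM in the mutant. Tagln, an actin-binding protein, read 97.05, 84.1 and 98.2 FPKM in Cre and 136, 149 and 119 FPKM in the mutant. All 3 were higher in each mutant library than in each Cre library. Cald1 rose by 0.30 (unstable, adjusted p up to 0.0794). Acta2, the most used marker of this programme, was higher in every mutant library (175 to 223 FPKM in Cre, 228 to 279.6 in the mutant) but missed the threshold (adjusted p = 0.0514). The myosin light chain Myl9 stood at 68.8 ± 2.55 and 75.5 ± 6.57 FPKM and did not pass. The contractile count was 3 without mutant replicate 1, Cre replicate 1 or Cre replicate 2. Of 12 targets of YAP and TEAD, the pair of factors that respond to cell spreading, 4 rose and 1 fell, with Ctgf at 37.7 ± 3.25 and 58.8 ± 2.92 FPKM, Ankrd1 at 0.77 and Amotl1 at 0.36. The exception was Nt5e, an ectonucleotidase that also marks mesenchymal cells, which fell by 0.96 and also had no mutant library at 1 FPKM. Of 18 genes of TGF-β and activin signalling, 5 rose and 13 did not pass. They included the signal carrier Smad3 (0.42) and the activin subunits Inhba (0.57) and Inhbb (0.34). The share that rose was 33.3% of the YAP and TEAD list and 27.8% of the TGF-β and activin list, beside 8.26% of all genes.

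Of 27 collagen chains tested, 9 fell (33.3%), 3 rose (11.1%) and 15 did not pass, beside 10.3% of all genes tested that fell and 8.26% that rose. The 3 that rose were Col3a1 and Col8a1 (0.22 and 0.37) and Col2a1, a cartilage chain, at 6.47 ± 0.634 FPKM in Cre and 13.4 ± 1.82 in the mutant (0.94). The count became 1 when mutant replicate 1 or 2 or Cre replicate 1 or 2 was left out. Col2a1 kept its call in each of these fits, so Col3a1 and Col8a1 lost theirs. Col15a1, a chain of the fat cell's basement membrane zone, read 61.6, 78.6 and 52.6 FPKM in Cre and 13.1, 22.04 and 24.2 FPKM in the mutant (-1.67). Col6a3, a chain of the microfibrils around fat cells, read 213, 212 and 197 FPKM in Cre and 112, 129 and 117 in the mutant (-0.79), though its Cre level was close to the ctrl mean of 204 FPKM. Col1a1, the main fibrillar chain, was at 829 ± 79.3 and 871 ± 76.5 FPKM and did not pass the test. Fibronectin (Fn1), named after its values were seen, read 799, 696 and 913 FPKM in Cre and 1326, 1304 and 1381 FPKM in the mutant (0.74). Of 15 matrix proteases and inhibitors, 4 rose (26.7%) and 2 fell (13.3%). Those that fell include Mmp9, at 1.27 FPKM in Cre and at 0.465 FPKM, below the filter level, in the mutant. Besides Mmp3, the membrane protease Mmp14 and the gelatinase Mmp2 rose by 0.41 and 0.39, and Mmp19 fell by 0.33. Of 12 elastic fibre genes, 2 rose, Loxl1 and Efemp1, at 0.27 and 0.29 (Efemp1 unstable, adjusted p up to 0.0589), of which 1 was left without Cre replicate 1 or 2. Of 7 small leucine-rich proteoglycans, 1 fell, Aspn at -0.43 (unstable, adjusted p up to 0.158), and Dcn, or decorin, stood at 12.1 and 13.2 FPKM without passing the test. The share that rose was 16.7% of the elastic fibre list, and the share that fell was 14.3% of the proteoglycan list.

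Dlk1, a surface protein of preadipocytes that blocks their differentiation, read 11.8, 12.99 and 13.04 FPKM in Cre and 5.06, 5.98 and 5.603 FPKM in the mutant (-1.06, SE 0.09, adjusted p = 9.98e-05). Igf2, a growth factor, read 8.93, 6.104 and 7.96 FPKM in Cre and 2.01, 2.099 and 2.19 FPKM in the mutant (-1.47, SE 0.12, adjusted p = 6.71e-05). Sfrp2, a Wnt modulator, read 189, 181 and 191 FPKM in Cre and 102, 109.6 and 118 FPKM in the mutant (-0.76). Each of these 3 genes had a lower mean in Cre + NFIA than in the mutant, at 1.28, 1.19 and 42.2 FPKM. Of 13 precursor surface proteins tested, 4 rose (30.8%), 2 fell (15.4%, Dlk1 and F3) and 7 did not pass. F3, the tissue factor gene, stood at 90.3 ± 6.17 FPKM in Cre and 75.5 ± 2.05 in the mutant (-0.25, unstable, adjusted p up to 0.143). Cd9, Anxa3 and Ly6a rose by 0.52, 0.51 and 0.33 (Ly6a unstable, adjusted p up to 0.089), and Pdgfra, at 43.7 to 53.5 FPKM in Cre and 54.5 to 66.3 in the mutant, did not pass the test. The 4 that rose became 2 without mutant replicate 1, Cre replicate 1 or Cre replicate 2. Of 16 genes that restrain adipogenesis, 3 rose (Ddit3, Sox9 and Runx2, at 0.28, 0.29 and 0.36) and 1 fell (Dlk1). These were 18.8% and 6.25% of the list, beside 8.26% and 10.3% of all genes tested. All 3 rises were unstable, with adjusted p up to 0.0744, 0.105 and 0.121, and they were lost together without mutant replicate 1.

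Growth factor and cytokine genes gave mixed counts, beside 8.26% of all genes tested that rose and 10.3% that fell. The share that rose was 33.3% for IGF, 25% for Wnt, 18.2% for BMP and 41.7% for chemokines and cytokines. It was 40% for glucocorticoid-induced genes, 9.09% for complement and 0% for interferon-stimulated genes. The shares that fell, in the same order, were 22.2%, 25%, 0%, 8.33%, 30%, 18.2% and 20%. In the IGF system, 3 of 9 rose and 2 fell, and 1 rose without Cre replicate 1 or 2. Igfbp3, an IGF-binding protein, read 13.5, 12.8 and 13.8 FPKM in Cre and 22.6, 22.6 and 27.4 FPKM in the mutant, Igfbp6 rose by 0.46 (unstable, adjusted p up to 0.0791) and Igf1 fell by 0.57. Of 12 Wnt ligands and antagonists, 3 fell and 3 rose, with the ligands Wnt5b at -0.59 and Wnt4 at 0.49 (unstable, adjusted p up to 0.0602), and 1 rose without Cre replicate 2. Of 11 BMP genes, 2 rose, Grem1 and Id2 (0.52), while Id1 at 75.7 and 69.2 FPKM did not pass. Of 12 chemokines and cytokines, 5 rose and 1 fell, with Ccl7 at 269 ± 16.2 and 366 ± 12.3 FPKM, Ccl5 at 0.41 and Il1rl1, the receptor for interleukin 33, at 0.70. Of 10 genes induced by glucocorticoid, 3 fell and 4 rose, and 2 rose without Cre replicate 1 or without both mutant replicate 1 and Cre replicate 3. Lcn2, which encodes lipocalin 2, read 11.1, 15.1 and 7.96 FPKM in Cre and 1.31, 2.52 and 2.403 FPKM in the mutant (-2.00), Tsc22d3 fell by 0.57, and the metallothionein Mt2 and the kinase Sgk1 rose by 0.62 and 0.43 (Sgk1 unstable, adjusted p up to 0.0558). Of 11 complement genes, Cfd and Cd59a (-0.32, unstable, adjusted p up to 0.112) fell and C4b rose (0.32, unstable, adjusted p up to 0.0575), while C3 overlapped between the groups. Of 25 interferon-stimulated genes, 5 fell and 20 did not pass, including among the former Gbp3 (-0.52), Rsad2 (-0.43, unstable, adjusted p up to 0.0598) and Rtp4 (-0.29), and 3 fell without Cre replicate 2.

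Growth and stress lists held few genes that passed the test. The share that rose was 7.14% for the cell cycle and 3.9% for cytosolic ribosomal proteins, beside 8.26% of all genes tested. It was 17.6% for p53 targets and 13.3% for the unfolded protein and heat-shock list. Of 28 genes of the cell cycle and DNA replication, 2 rose, the replication helicase subunits Mcm6 and Mcm3 at 0.19 (unstable, adjusted p up to 0.0648) and 0.15 (unstable, adjusted p up to 0.167), and Mki67 stood at 32.3 ± 2.48 and 30.8 ± 2.32 FPKM. Of 17 p53 targets, 3 rose, Pmaip1, Plk2 and Bax, at 0.42, 0.22 and 0.23, and Cdkn1a was at 279 and 292 FPKM. All 3 were unstable, with adjusted p up to 0.0634, 0.105 and 0.128, and each was lost without mutant replicate 1 or Cre replicate 3. Of 15 genes of the unfolded protein and heat-shock response, 2 rose (Hspa1b at 0.42, and Ddit3, unstable as above with adjusted p up to 0.0744) and 1 fell (Xbp1 at -0.20, unstable, adjusted p up to 0.193). Of 77 cytosolic ribosomal proteins, 3 rose, Rpl4 and Rpl3 among them at 0.25 and 0.18 (Rpl3 unstable, adjusted p up to 0.149), and the median of the list was 0.11. The number of ribosomal proteins that rose was 21 without mutant replicate 3, 5 without Cre replicate 3 and 1 without any of the other 4 libraries.

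Of 36 skeletal muscle genes listed, 6 passed the filter (Mylpf, Myl4, Tnnc1, Des, Acta1 and Pax3), and 0 of these passed the test by limma or by limma voom, while 1 had an unadjusted p under 0.05. The muscle regulator Myod1 and the myosin Myh8 were at 0 in all 6 libraries, and Myog read 0.0563, 0 and 0.122 FPKM in Cre and 0, 0.112 and 0 FPKM in the mutant. Myl4, an embryonic myosin light chain, read 1.595, 2.73 and 1.96 FPKM in Cre and 1.21, 1.1004 and 1.64 FPKM in the mutant, which overlapped (adjusted p = 0.115). Its p was 0.0309 before adjustment. Klf5, an early adipogenic factor, was below the filter, with 0.435, 0.443 and 0.525 FPKM in Cre and 0.447, 0.192 and 0.685 FPKM in the mutant. Ppara, which drives fatty acid oxidation in brown fat, was below it too, at 0.572 FPKM in Cre and 0.391 FPKM in the mutant.

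Among the genes tested at day 7, few reached 3-fold before differentiation. Genes below the day 7 filter were not tested at day 0. At day 0, over the same genes and in a fit of the 12 day 0 libraries, 1097 genes were lower in the mutant (9.3%) and 1186 were higher (10.0%), but 18 in all reached 3-fold. Of the 76 genes 3-fold lower at day 7, 10 passed the test at day 0. In a fit of all 24 libraries, the difference between mutant and Cre was itself lower at day 7 than at day 0 for 1254 genes (10.6%) and higher for 958 (8.12%), and this interaction reached 3-fold for 92 and 3 genes. The interactions of the genes named for their day 7 difference are a description, since that difference chose them and enters the interaction. Fabp4 stood at 13.6 FPKM in Cre and 26.3 in the mutant at day 0, higher in the mutant (0.94, adjusted p = 0.005), and its interaction was -3.24 (SE 0.42, adjusted p = 3.13e-05). Cidec had a day 0 log2 fold change of 0.21 (adjusted p = 0.506) and an interaction of -2.68, and Orm1 had 0.91 and -3.14. Pparg did not differ detectably at day 0 (-0.05, SE 0.15) and had an interaction of -1.17 (adjusted p = 0.00228), whereas Cebpa was already lower at day 0 (-0.62, adjusted p = 0.00177) and fell further relative to Cre (-0.79, adjusted p = 0.0321).

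Some differences seen at day 0 were not detected at day 7, those of Igfbp3 and of some contractile genes changed sign, and other genes differed from the start. Myl9, Cebpb and Cebpd did not pass the test at day 7. Contractile genes had a median of -0.40 at day 0, where all 14 were below 0 and 9 fell, while 5 rose at day 7. In the interaction 13 of 14 rose, with Myl9 at -0.93 at day 0 and 0.13 at day 7 (interaction 1.06, adjusted p = 0.000107). Igfbp3 was lower in the mutant at day 0 (27.6 FPKM in Cre, 12.6 in the mutant) and higher at day 7, an interaction of 1.89 (SE 0.12, adjusted p = 1.31e-08). It was one of the 3 genes with an interaction above 3-fold, the others, named after their values were seen, being Cemip, a hyaluronan-degrading protein (-1.61 at day 0, 0.07 at day 7), and the 75-base miRNA gene Mir343. Cebpb and Cebpd were higher in the mutant at day 0, at 1.23 and 1.39, with interactions of -1.31 and -1.06. By contrast, Igf2 and Dlk1 were already lower at day 0, at -1.99 and -1.10, and Kdr, Sfrp4 and Emp2 were already higher, at 1.09, 1.22 and 0.79. The interactions of Dlk1, Kdr, Sfrp4 and Emp2, at 0.05, 0.28, 0.33 and 0.35, did not pass the test, and that of Igf2 was 0.52 (adjusted p = 0.0175). Mmp3 and Grem1 had day 0 differences of 0.08 and -0.03 and interactions of 1.56 (adjusted p = 1.88e-05) and 1.21 (adjusted p = 0.00168).

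**Figure D5:**
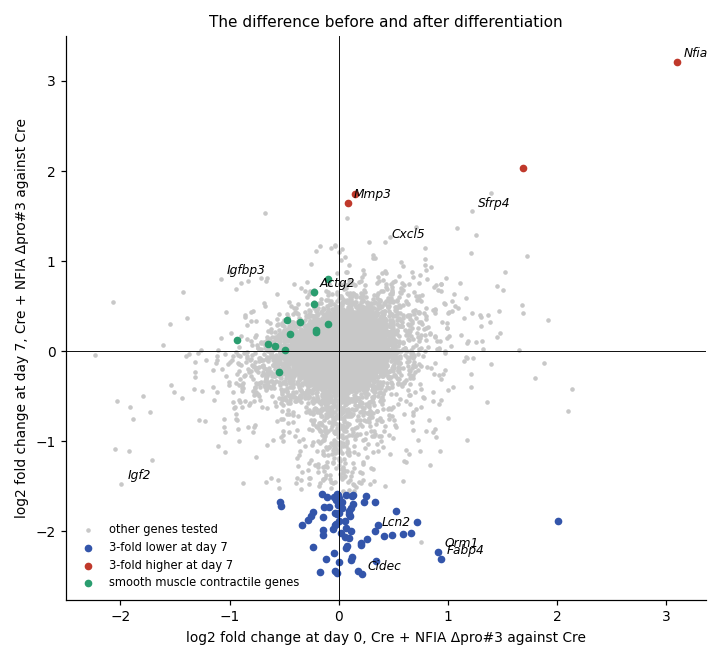
Log2 fold change of Cre + NFIA Δpro#3 against Cre at day 0 (x axis) and at day 7 (y axis) for the 11802 genes tested, each point a gene. The genes 3-fold lower at day 7 lie mostly near 0 on the x axis, Nfia is high on both, and the 14 contractile genes lie left of 0 on the x axis. The 2 days use separate libraries.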

How the data were processed

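Per the labels and the methods, RNA was extracted with Trizol and an RNeasy kit, libraries were made with a stranded poly(A) kit (TruSeq), and reads were aligned to mm9 with STAR 2.5.3a and counted per gene on the matching strand, keeping reads with a single alignment. The authors deposited FPKM per gene in each library, with gene length, and no counts. FPKM multiplied by length returned whole reads for 100% of values above 0 (tolerance 0.05 reads), which gave each library's depth. Depth limits low genes: counting error and the floor of 3 reads cover sampling only.

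Genes at 1 FPKM or more in at least 3 of the 6 compared libraries were tested. Values were log2(FPKM + 1), so fold changes of low genes are understated. The test was limma 3.58.1 (R 4.3.3) with a mean-variance trend, two-sided, fitted over the 12 day 7 libraries (day 0: 12 libraries, interaction: all 24), with Benjamini-Hochberg adjustment over all 11802 genes. Fell or rose means an adjusted p under 0.05. The fit was also run on simulated counts, drawn independently for each gene with the same dispersion for all. That run does not bear on spread that genes share between libraries. The genes named are those the study follows, the 12 lower and 8 higher genes with the largest change (short genes, date-like symbols and Nfia left out), and in each list the 4 members with the smallest adjusted p (2 in lists of over 40), with others added where a member that did not change is shown or where stated; some members are not reported here. The 12 lower genes were taken from genes called at 3-fold whose groups of 3 did not overlap. The 8 higher genes were taken by the same rule first and then filled with genes at an adjusted p under 0.05. The genes, lists and tests were chosen with earlier results of these data known. Alternatives were other pseudocounts (0.1 and 5), filters, scalings, sample sets, limma without trend, limma voom on the recovered reads, a replicate block and leaving out libraries. Libraries of a group differed by more than sampling noise (chi-square per degree of freedom 4.28 to 15.9), so none was counted as a duplicate. Replicate numbers were checked for pairing (results under the processing alternatives).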

Additional observations from a re-analysis of the deposited data

Results flagged for a closer look

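The difference between the mutant and Cre was not the same at day 7 as at day 0, by the interaction term of a limma fit over all 24 libraries, for 92 genes at 3-fold with the mutant lower at day 7 relative to day 0 and for 3 genes with it higher. The values here are day 7 log2 fold changes minus day 0 log2 fold changes, mutant against Cre, on log2(FPKM + 1).

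Fatty acid carriers and lipases were among the genes flagged for a change between the days. Fabp4 changed by -3.24, Fabp5 by -2.62, Cd36 by -2.17, Acsl1 by -2.35 and Angptl4 by -1.66. Pnpla2 changed by -2.28, Lipe by -2.11, Mgll by -1.90 and the lipase inhibitor G0s2 by -2.67. Droplet proteins were in the group, with Cidec at -2.68, Plin1 at -2.24 and Fitm2 at -1.76.

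Genes of lipid synthesis gave Gpd1 -2.62, Gpat3 -2.47, Agpat2 -2.53, Fasn -1.62, Elovl3 -1.79 and Insig1 -1.60. The regulators Mlxipl and Thrsp stood at -2.40 and -2.44. Secreted products gave Adipoq -2.25, Retn -2.28, Rbp4 -1.82, Cfd -2.40, Orm1 -3.14, Hp -2.68 and Lcn2 -2.33. Among the remaining genes lower at day 7, Slc2a4 stood at -1.84, Mrap at -2.43, Kcnk3 at -1.90, Car2 at -2.19 and Car3 at -2.19. In the other direction, Igfbp3 stood at 1.89, Cemip at 1.68 and the 75-base miRNA gene Mir343 at 2.62.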

How the results depend on the processing

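Of the 167 named genes that were followed over the alternatives, none that passed the test changed direction in any of them. Of 3314 values over these 167 genes and all settings, 3135 kept their side of the threshold, 162 lost the call and 17 gained it. Of the 146 genes followed that passed the test, 30 lost it in at least 1 setting.

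The size of the 3-fold group depended on the scale. Where all libraries gave 80 genes at day 7 (76 lower and 4 higher), limma voom on recovered reads gave 152 (141 lower, 11 higher), a pseudocount of 0.1 gave 154 (144 lower, 10 higher), a pseudocount of 5 gave 27 (26 lower, 1 higher) and a 2-fold threshold gave 240 (220 lower, 20 higher). A minimum length of 200 bases left 2 higher genes and a mean of at least 5 FPKM left 1. When single libraries were left out, the count ran from 42 (without mutant replicate 1, 38 of them shared with all libraries) to 129 (without Cre replicate 3, 79 shared), with 39 to 123 lower and 3 to 6 higher, and leaving out both gave 7 higher genes. Counts by adjusted p alone ran from 809 (without mutant replicate 1) to 1372 (without Cre replicate 3) lower and from 506 to 1075 higher without the same libraries, with 538 and 535 higher without Cre replicate 1 and Cre replicate 2, and a fit of the 6 compared libraries alone gave 832 lower and 596 higher. Scaling by median-of-ratios size factors gave 1225 lower and 830 higher, and quantile normalization gave 1207 and 1270.

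For the interaction, where all libraries gave 95 genes (92 lower, 3 higher), a pseudocount of 0.1 gave 171 (154 lower, 17 higher), a pseudocount of 5 gave 27 (27 lower, 0 higher), a 2-fold threshold 317 (278 lower, 39 higher) and voom 20 higher. Leaving out single day 7 libraries gave 59 (without mutant replicate 1 or Cre replicate 2) to 140 (without Cre replicate 3), with 55 to 131 lower and 2 to 9 higher, and leaving out mutant replicate 1 with Cre replicate 3 gave 7 higher. At day 0, voom gave 52, a pseudocount of 0.1 gave 45 and a pseudocount of 5 gave 4, beside 18.

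A replicate block in the fit gave 81 genes at day 7 (77 lower, 4 higher), 96 for the interaction (92 lower, 4 higher) and 19 at day 0. The replicate numbers were not treated as a pairing, because the deviations of same-numbered mutant and Cre libraries from their group means had correlations of -0.0172, 0.2176 and -0.0662 across genes, and not every library correlated best with its own number. The leave-out fit of 2 libraries together and the day 0 alternatives were chosen after seeing the data. Depth limits genes near 1 FPKM, where a change of a few reads moves the value.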
